A study of Mus musculus with 21 samples.

Results

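Repeated injection of an antibody against CD8a, the coreceptor of cytotoxic T cells, was compared with injection of a rat IgG2b isotype control in the hippocampus of aged mice. This comparison takes 10 of the 21 libraries of the study, 5 with the CD8a antibody and 5 with IgG2b, chosen by the treatment named in the sample labels. All 10 came from male wild-type mice of 22 to 24 months that received intraperitoneal injections every 4 days until they were killed. After perfusion, 1 hippocampus per brain was frozen for strand-specific, polyA-enriched, paired-end sequencing. The strain of the aged mice is not named in the labels, and untreated aged mice and young mice given either antibody are not part of the comparison. The labels name each library once without saying that each is a separate mouse, so p-values measure the spread between these libraries.

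CD8+ T cells recognise peptides presented on MHC class I, which consists of a heavy chain and beta-2-microglobulin. They kill the presenting cell with perforin and granzymes and secrete interferon-gamma. In the brain, interferons act mainly on microglia, astrocytes and endothelium, where STAT and IRF factors switch on MHC genes, the immunoproteasome that cuts peptides for class I, guanylate-binding proteins and antiviral effectors. STAT complexes with IRF9 bind the interferon-stimulated response element (ISRE), and STAT dimers bind the gamma-activated site (GAS). Hippocampal RNA is dominated by neurons and glia, so that T cells, which are few in the aged brain, contribute little to it.

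The promoters of B2m, Psmb8, Gbp2 and Gbp3, from the antigen presentation and interferon lists, and of the galectin Lgals9 are shown first, because these genes lay higher with the antibody and hold the letters of an interferon motif. Each line gives the 250 bases before the RefSeq start of the gene (build GRCm38.p6, the patch release of mm10), 5′ to 3′ on the strand of the gene, with the motif in capitals. B2m encodes beta-2-microglobulin (plus strand, chr2:122147437-122147686) and has the ISRE letters 139 bases before its start. Psmb8 encodes an immunoproteasome subunit (plus strand, chr17:34197945-34198194) and has the GAS letters, which read the same on both strands, 97 bases before its start. Gbp2 and Gbp3 encode guanylate-binding proteins (plus strand, chr3:142620413-142620662 and chr3:142559794-142560043). Gbp2 has the ISRE letters on the other strand 59 bases before its start, and Gbp3, of which 1 of 2 listed promoters is shown, has 2 overlapping matches on the other strand, 45 and 39 bases before. Lgals9 encodes galectin-9 (minus strand, chr11:78984925-78985174) and has the ISRE letters on the other strand 55 bases before its start.
B2m: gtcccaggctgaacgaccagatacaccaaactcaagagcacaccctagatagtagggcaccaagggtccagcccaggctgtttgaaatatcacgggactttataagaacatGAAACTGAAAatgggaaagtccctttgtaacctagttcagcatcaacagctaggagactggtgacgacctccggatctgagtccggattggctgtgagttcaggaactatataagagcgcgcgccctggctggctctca
Psmb8: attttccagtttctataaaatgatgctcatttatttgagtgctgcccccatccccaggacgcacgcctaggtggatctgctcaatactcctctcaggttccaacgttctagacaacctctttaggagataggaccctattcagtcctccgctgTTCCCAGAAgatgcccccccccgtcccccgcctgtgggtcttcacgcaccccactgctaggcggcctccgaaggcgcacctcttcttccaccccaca
Gbp2: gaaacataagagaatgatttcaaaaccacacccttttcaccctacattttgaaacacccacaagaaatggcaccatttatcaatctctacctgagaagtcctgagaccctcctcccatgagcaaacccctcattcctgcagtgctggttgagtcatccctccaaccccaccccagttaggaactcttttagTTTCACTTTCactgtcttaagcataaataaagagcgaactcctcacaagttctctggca
Gbp3: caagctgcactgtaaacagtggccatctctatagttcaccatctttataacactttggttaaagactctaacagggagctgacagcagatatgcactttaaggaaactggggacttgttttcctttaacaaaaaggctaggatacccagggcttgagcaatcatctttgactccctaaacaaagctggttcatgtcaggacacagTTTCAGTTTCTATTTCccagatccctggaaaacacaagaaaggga
Lgals9: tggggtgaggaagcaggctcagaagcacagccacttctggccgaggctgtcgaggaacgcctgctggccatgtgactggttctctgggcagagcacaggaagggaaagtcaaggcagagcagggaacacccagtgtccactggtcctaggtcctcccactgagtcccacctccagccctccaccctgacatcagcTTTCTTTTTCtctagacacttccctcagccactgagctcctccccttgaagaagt

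The search used GAAA, 2 of any base and GAAA for the ISRE core and TTC, 3 of any base and GAA for GAS, on both strands of these 250 bases. Of 27018 genes with a promoter in the RefSeq table, 936 (3.46%) had the ISRE letters and 2197 (8.13%) had the GAS letters. Among interferon-inducible GTPases, 9 of 10 genes with a promoter had the ISRE letters and 6 of 10 the GAS letters. The other interferon-stimulated genes had ISRE letters in 10 of 32, MHC class I genes in 3 of 15 (B2m, H2-T22 and H2-T23) and the immunoproteasome in 0 of 5. GAS letters were found in 5 of 32, 1 of 15 (H2-M3) and 1 of 5 (Psmb8, shown above) of these lists. A match describes the sequence and does not show that a factor binds there.

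The tissue markers matched the label. Slc17a7, the vesicular glutamate transporter of excitatory neurons, lay between 16584 and 24652 normalized counts in the 10 libraries, and Camk2a, a kinase of the same cells, between 33484 and 74719. The granule cell markers Prox1 and C1ql2, the astrocyte genes Aqp4 and Slc1a2, the myelin gene Mbp and the microglial genes Cx3cr1 and P2ry12 were all read at 152 normalized counts or more in each library. Depth differed between the groups. Libraries held 9957822 to 12136146 reads with the antibody and 11103024 to 14375029 with IgG2b, and the group means differed (exact permutation p = 0.0238, two-sided, n = 5 each). Genes with at least 1 read numbered 16093 to 16394 with the antibody and 16100 to 16371 with IgG2b.

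CD8a antibody replicate 5 stood apart. On the first principal component of the 13939 tested genes, which held 24.6% of the variance, it lay at 57.3, while the other antibody libraries lay between -28.2 and -9.97 and the IgG2b libraries between -6.64 and 6.90. A set of region markers separated the groups instead. The mean log2 level of 7 genes enriched in the ventral hippocampus minus that of 5 dorsal genes was -1.40, -0.33, -1.06, -1.23 and -0.29 in antibody replicates 1 to 5, and 0.25, 0.07, 0.40, 0.02 and 0.62 in IgG2b replicates 1 to 5. No antibody library reached the lowest IgG2b library. The level of choroid plexus markers, genes of the epithelium that borders the hippocampus in the ventricle, was 7.59, 8.32, 8.57, 5.63 and 4.14 with the antibody and 8.27, 6.18, 5.45, 6.09 and 5.21 with IgG2b. It was high in antibody replicates 1 to 3 and in IgG2b replicate 1. Because the ventral minus dorsal level does not overlap between the groups, the treatment and the part of the hippocampus sampled cannot be told apart in these libraries. Values with this level as a covariate, or without antibody replicate 5, are given beside many of the genes and lists, but not beside all. Within the antibody group this level was nearest to the controls in replicates 2 and 5. Values with the covariate thus also depend on how these libraries differ from the other antibody libraries.

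**Figure D1:**
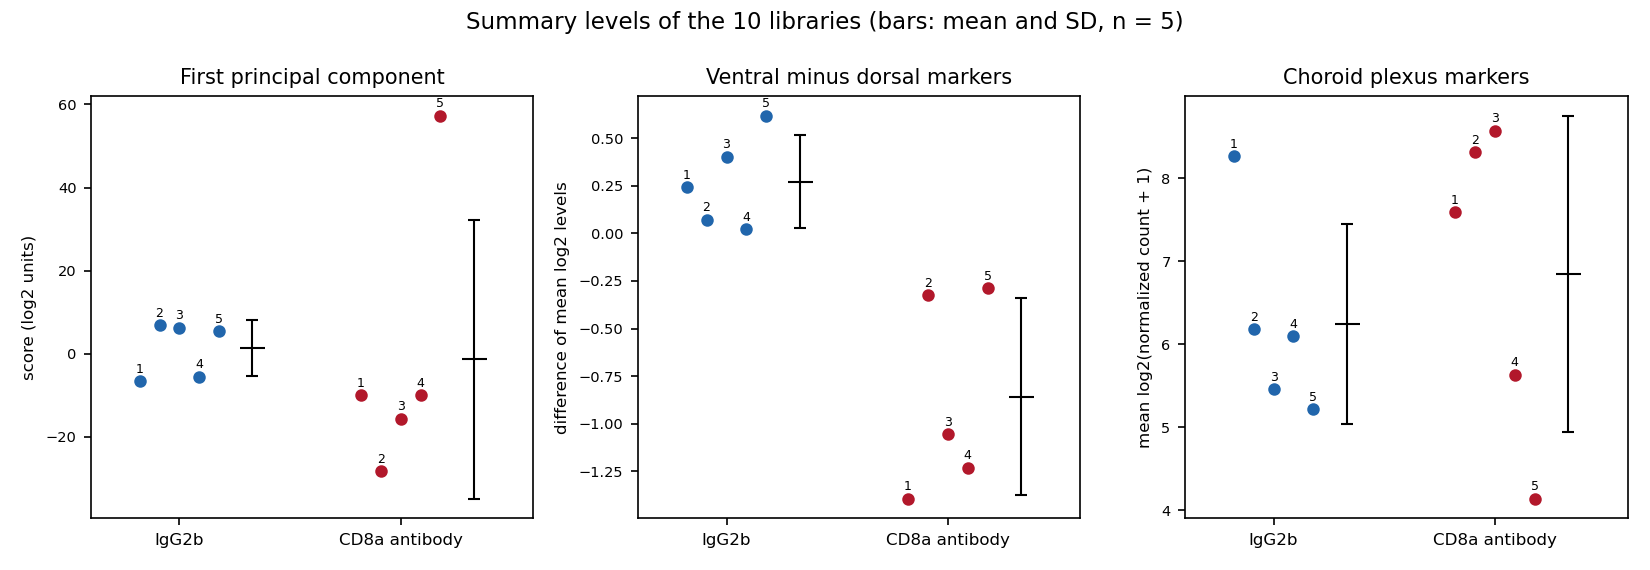
Each point is 1 library, numbered by replicate, and the bars show the mean and SD of 5 libraries per group. The panels give the score on the first principal component (log2 units), the ventral minus dorsal marker level (difference of mean log2 levels) and the choroid plexus level (mean log2 of normalized count + 1). CD8a antibody replicate 5 lies alone at 57.3 on the first, the groups do not overlap on the second, and they overlap on the third.

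A single gene changed at an adjusted p under 0.05. limma called 1 of 13939 genes (0.00717%), the lower Gpr101, and 1180 genes (8.47%) had an unadjusted p under 0.05. Of these, 601 were higher (4.31%) and 579 lower (4.15%). In 109 genes (0.782%) all 5 antibody libraries lay above all 5 IgG2b libraries, and in 177 (1.27%) all lay below, 286 genes together (2.05%). Without antibody replicate 5 limma called 9 genes higher (0.0646%) and 16 lower (0.115%), and with the ventral minus dorsal covariate 12 higher (0.0861%) and 2 lower (0.0143%). The authors' deposited table called 92 of 14024 genes (0.656%), 30 higher (0.214%) and 62 lower (0.442%). Of those 92 genes in the authors' deposited table, 73 did not overlap between the groups, 20 of the higher and 53 of the lower ones. In limma each of the 91 tested here had the sign of that table and an unadjusted p under 0.05. Those genes were called from the same libraries, so their separation, sign and p-value here largely follow from the choice and add no separate support. limma on log2 values and DESeq2 on reads differed in the number of calls. Over all genes tested, 49.6% were higher and the median log2 difference was -0.00, the values against which the gene lists below stand.

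T cell transcripts were near the limit of what was read in both groups, so the depletion itself cannot be read from these libraries. Cd8a had 14 reads in all with the antibody and 10 with IgG2b, with at most 4 in any library. Cd8b1, the other CD8 chain, had 9 and 8 reads, and Cd3e, a chain of the T cell receptor complex shared by all T cells, had 0 and 1. Gzmk, a granzyme known from T cells of aged mice, had 0 reads in both groups. With 0 reads a level of up to 0.0547 CPM over the antibody libraries or 0.0457 over the IgG2b libraries remains possible, counting error only. Ifng, which encodes interferon-gamma, had 1 read with the antibody and 6 with IgG2b, all 6 in 1 library. The list of 21 T cell genes summed to 501 reads with the antibody, 62 to 134 per library, and to 559 with IgG2b, 61 to 137 per library. Most of them came from Zap70, a T cell receptor kinase, with 278 and 332 reads. No member of the NK cell, B cell and plasma cell or neutrophil lists reached the mean of 10 normalized counts needed for the test. The chemokine Ccl5, which memory T cells secrete, had 18 reads with the antibody and 10 with IgG2b.

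Gpr101, an orphan G protein-coupled receptor known from the hypothalamus (chromosome X, 57496668 to 57503757, minus strand), was at 103, 103, 96.6, 81.6 and 56.8 normalized counts in antibody replicates 1 to 5 and at 268, 214, 241, 179 and 287 in IgG2b replicates 1 to 5. Every antibody library lay below every IgG2b library, and the highest antibody value was far below the lowest control. The log2 difference was -1.43 (SE 0.19, limma adjusted p = 0.0267). The call was lost without the mean filter (limma adjusted p = 0.064), with the ventral minus dorsal covariate (0.0836, log2 -1.54) and without antibody replicates 1, 3 or 4 or IgG2b replicates 1, 2, 3 or 5 (up to 0.163), with log2 values of -1.53 to -1.29 over the fits without 1 library. In the authors' deposited table its adjusted p was 2.21e-09.

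Other receptor genes were lower without passing in limma. Tacr3, the neurokinin B receptor, was at 7.19, 15.6, 20.6, 27.9 and 25.5 normalized counts with the antibody and at 98.4, 58.5, 52.1, 39.4 and 62.3 with IgG2b. The groups did not overlap, and antibody replicate 1 was lowest. Its log2 difference was -1.70 (SE 0.35, limma adjusted p = 0.175, and 0.00149 in the authors' deposited table). Sstr1, a somatostatin receptor, was at 172, 303, 286, 278 and 387 against 571, 526, 526, 431 and 673, again without overlap. Its log2 difference of -0.96 (SE 0.18, limma adjusted p = 0.148) passed without antibody replicate 5 (-1.08, 0.0224) and was -0.20 with the ventral minus dorsal covariate. Trhr, the receptor of thyrotropin-releasing hormone and a marker of ventral granule cells, overlapped between the groups, with 33.5, 120, 45.2, 90.5 and 49.0 against 92.4, 156, 158, 130 and 199 (log2 -1.22, SE 0.31).

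Timp2, an inhibitor of matrix metalloproteinases (chromosome 11, 118301061 to 118355411), was at 2185, 3052, 2646, 2929 and 3538 normalized counts with the antibody and at 5127, 4608, 4945, 4446 and 4576 with IgG2b. The highest antibody library, replicate 5, stayed below the lowest control. Its log2 difference was -0.74 (SE 0.12, limma adjusted p = 0.117), it passed without antibody replicate 5 (-0.82, 0.00908), and it was -0.34 with the ventral minus dorsal covariate. Adamts2, which trims procollagen, was at 88.6, 72.4, 124, 102 and 82.3 against 152, 156, 207, 165 and 167 (log2 -0.86, SE 0.16). Tpbg, a membrane glycoprotein of the Wnt pathway, was at 44.3, 57.9, 40.1, 42.5 and 58.8 against 122, 92.9, 105, 114 and 98.8 (log2 -1.12, SE 0.17). Neither gene overlapped between the groups, and limma's adjusted p was 0.148 and 0.079. Timp2 and Adamts2 belong to a list of 26 metalloproteinases and inhibitors, of which 16 were higher and 10 lower. Its median was 0.07 on the log2 scale, and -0.14 with the ventral minus dorsal covariate.

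Slit2, a repellent guidance cue, was at 310, 271, 324, 317 and 253 normalized counts with the antibody against 377, 454, 476, 520 and 634, without overlap (log2 -0.72, SE 0.14). Efnb2, the guidance ligand ephrin-B2, was at 316, 437, 425, 365 and 312 against 859, 588, 543, 553 and 629, without overlap (log2 -0.77, SE 0.15). Tenm4, a teneurin adhesion receptor, was at 331, 408, 489, 383 and 311 against 719, 480, 657, 700 and 778, where antibody replicate 3 lay just above IgG2b replicate 2 (log2 -0.79, SE 0.15). Kit, the receptor of stem cell factor that hippocampal interneurons express, was at 955, 723, 1175, 972 and 957 against 1284, 1344, 1527, 1505 and 1819, without overlap (log2 -0.65, SE 0.13). limma's adjusted p was 0.148 for the guidance and teneurin genes and 0.175 for Kit, and all 4 passed in the authors' deposited table (adjusted p 0.00149 to 0.00402). With the ventral minus dorsal covariate the log2 differences were -0.86, -0.68, -0.73 and -0.77.

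**Figure D2:**
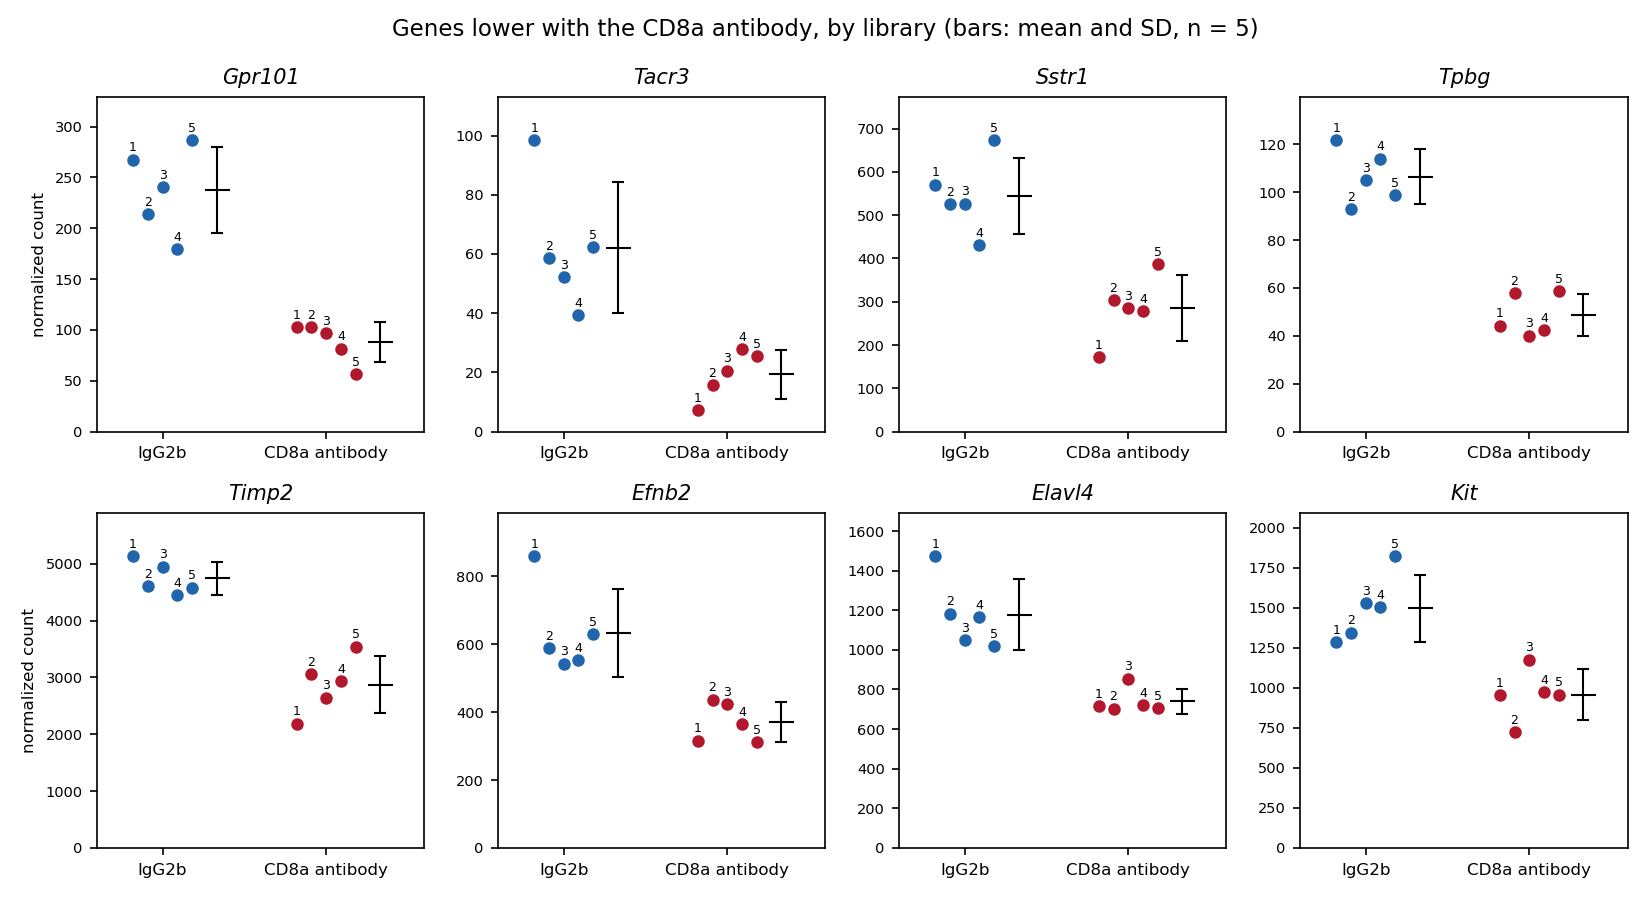
Each point is the normalized count of 1 gene in 1 library, numbered by replicate, with IgG2b in blue, the CD8a antibody in red, and the mean and SD of 5 libraries beside them. All axes start at 0. In these 8 genes each antibody library lies below each IgG2b library, with Gpr101 at 56.8 to 103 against 179 to 287.

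Among RNA-binding proteins of neurons, Elavl4 (HuD), which stabilises AU-rich transcripts, was at 717, 703, 855, 719 and 705 normalized counts with the antibody and at 1472, 1183, 1050, 1164 and 1018 with IgG2b. The antibody libraries were close together apart from replicate 3, and none reached the lowest control (log2 -0.66, SE 0.11, limma adjusted p = 0.148, and -0.82 with the ventral minus dorsal covariate). Its relative Elavl2 was at 1052, 973, 928, 983 and 760 against 1161, 1341, 1290, 1622 and 1383, also without overlap (log2 -0.53, SE 0.12). Celf6, a splicing factor, overlapped through antibody replicate 5, with 195, 212, 251, 241 and 332 against 323, 327, 353, 340 and 353 (log2 -0.48, SE 0.14). Of the 20 listed RNA-binding proteins 14 were lower, 3 of them at an unadjusted limma p under 0.05, and the median log2 difference was -0.16, or -0.04 without antibody replicate 5. It was -0.42 with the ventral minus dorsal covariate, where 17 of 20 were lower.

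The region markers behind the ventral minus dorsal level were read gene by gene. All 7 ventral genes were lower, 6 of them at an unadjusted limma p under 0.05, with a median log2 difference of -0.82, or -0.34 with the covariate built from them. Dcn, the matrix proteoglycan decorin, which is also a fibroblast gene, was at 152, 369, 377, 287 and 567 normalized counts with the antibody and at 1032, 733, 733, 770 and 749 with IgG2b, without overlap. Its log2 difference was -1.30 (SE 0.26) with all libraries and -1.51 without antibody replicate 5, where it passed (limma adjusted p = 0.02). Etv1, an ETS factor, did not overlap either (808 to 956 against 994 to 1562, log2 -0.51, SE 0.12). Nr2f2, the nuclear receptor COUP-TFII, was at 181, 505, 279, 193 and 286 against 445, 575, 572, 430 and 715 (log2 -1.0, SE 0.24). Grp, gastrin-releasing peptide, was at 134, 166, 168, 145 and 389 against 411, 340, 344, 259 and 296, where antibody replicate 5 stood among the controls. Its log2 difference of -0.82 (SE 0.24) became -1.09 without that library and passed (limma adjusted p = 0.00908). The serotonin receptor Htr2c (log2 -0.56, SE 0.20) and the glypican Gpc3 (-0.26, SE 0.20) overlapped between the groups.

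Dorsal and dentate markers lay on the other side with less order. Of 5 dorsal genes 3 were higher (median log2 difference 0.25), led by Lct, the lactase gene, a marker of dorsal granule cells, at 702, 284, 655, 797 and 354 normalized counts with the antibody against 161, 414, 271, 454 and 240 (log2 0.84, SE 0.31). Wfs1, a CA1 marker, was at 1749, 1227, 1605, 1868 and 1278 against 2016, 1283, 1157, 1118 and 1024 (log2 0.25, SE 0.18). All 8 dentate gyrus markers were higher, with a median of 0.46. Tdo2, tryptophan dioxygenase of granule cells, was at 57.5, 59.1, 97.7, 92.7 and 72.5 against 12.9, 66.9, 43.4, 36.0 and 50.5 (log2 0.98, SE 0.35). Dsp, desmoplakin of granule cells, was at 656, 374, 552, 469 and 199 against 179, 312, 276, 288 and 229, and passed without antibody replicate 5 (log2 0.99, limma adjusted p = 0.0486). C1ql2, a synaptic organiser of mossy fibres, was at 1574, 743, 1716, 1598 and 1576 against 541, 1472, 939, 832 and 1018. With the ventral minus dorsal covariate the medians were -0.30 for the dorsal genes, which are part of that level, and -0.29 for the dentate genes.

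Inhibitory neuron genes were lower by a small amount. Of 32 tested members 24 were lower, 6 of them at an unadjusted limma p under 0.05 and 4 without overlap, with a median log2 difference of -0.27, or -0.20 with the ventral minus dorsal covariate. The list level, the mean log2(normalized count + 1) of the members, was 7.73 to 8.04 with the antibody and 8.06 to 8.21 with IgG2b, so the groups did not overlap. Reln, the secreted protein reelin of interneurons, was at 315, 315, 447, 399 and 268 normalized counts against 685, 445, 490, 425 and 488 (log2 -0.54, SE 0.16). Lhx6, a transcription factor of interneurons from the medial eminence, was at 228, 193, 225, 171 and 201 against 283, 274, 265, 243 and 252, without overlap (log2 -0.38, SE 0.12). The GABA-synthesising enzyme Gad1 (log2 -0.23, SE 0.12) and the neuropeptide Sst (-0.39, SE 0.19, with 4003 in antibody replicate 5 above all controls) overlapped between the groups. In whole tissue, fewer cells of a type and less RNA per cell cannot be told apart.

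Most genes of presynaptic release were lower. Of 21 tested members 20 were lower, and 2 had an unadjusted limma p under 0.05. The median log2 difference was -0.18, or -0.09 without antibody replicate 5 and -0.26 with the ventral minus dorsal covariate. Sv2b, a synaptic vesicle glycoprotein, was at 5089, 3717, 5869, 5097 and 4999 normalized counts against 6422, 5651, 7492, 8135 and 8257 (log2 -0.54, SE 0.14). Syt1, the calcium sensor of vesicle fusion, was at 16588, 11045, 17588, 16815 and 12027 against 18962, 18546, 17865, 20595 and 17791, with antibody replicates 2 and 5 lowest (log2 -0.36, SE 0.14). Gabra3, a GABA-A receptor subunit, passed in the authors' deposited table (adjusted p = 0.0394) and was at 719, 1291, 820, 848 and 776 against 1859, 1150, 1280, 1594 and 1224 (log2 -0.68, SE 0.17). Of 22 excitatory synapse genes 15 were lower (median -0.10), with a median of -0.51 under the covariate and -0.03 without antibody replicate 5. The 12 GABA-A receptor subunits had a median of -0.18, or -0.52 with the covariate. The 15 immediate early genes, which report recent firing, had a median of 0.05 with 8 higher, and -0.02 with the covariate.

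The MHC class I light chain B2m and the immunoproteasome subunit Psmb8 separated the groups, while most other genes of their lists overlapped. B2m was at 1381, 1436, 1361, 1369 and 1366 normalized counts in antibody replicates 1 to 5 and at 915, 1157, 937, 981 and 889 in IgG2b replicates 1 to 5. The antibody libraries were nearly level, and all lay above the highest control, replicate 2. The log2 difference was 0.51 (SE 0.09, limma adjusted p = 0.148), it passed without antibody replicate 5 (0.51, 0.0463), and it was 0.45 with the ventral minus dorsal covariate. The authors' deposited table called it with an adjusted p of 0.000354. Psmb8 was at 92.2, 92.5, 110, 83.8 and 107 against 52.7, 57.6, 50.4, 36.9 and 55.8, also without overlap (log2 0.93, SE 0.17, limma adjusted p = 0.148, and 1.14 with the covariate).

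Of 17 tested MHC class I genes 12 were higher, 4 at an unadjusted limma p under 0.05 and 2 without overlap, with a median log2 difference of 0.21. The median was 0.31 with the ventral minus dorsal covariate, where 11 were higher, and 0.28 without antibody replicate 5, where 13 were. With all libraries 5 of the 17 were lower, none at an unadjusted limma p under 0.05, and the log2 differences of the list ranged from -1.21 to 0.87. H2-D1, a classical heavy chain, was at 1037, 847, 875, 884 and 748 normalized counts against 603, 718, 613, 439 and 725, without overlap (log2 0.52, SE 0.14). H2-K1, the other classical heavy chain, was at 590, 644, 670, 459 and 476 against 329, 400, 387, 314 and 536 (log2 0.54, SE 0.16). H2-Q4, a non-classical chain, was at 108, 155, 106, 54.7 and 74.5 against 54.4, 60.4, 54.7, 31.0 and 61.2 (log2 0.87, SE 0.27). Heavy chain genes are near-identical copies, and how shared reads were split between them is not given in the sources used here, so the values of single H2 genes are uncertain.

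The other immunoproteasome genes differed less than Psmb8 on the log2 scale. Psmb9, a catalytic subunit, was at 13.2, 30.1, 15.4, 19.0 and 25.5 normalized counts against 13.8, 22.3, 19.1, 10.9 and 6.44 (log2 0.53, SE 0.37), and Psmb10 was at 315, 384, 286, 276 and 507 against 330, 413, 337, 287 and 339 (log2 0.02, SE 0.16). The activator subunits Psme1 and Psme2 had log2 differences of 0.04 (SE 0.14) and 0.25 (SE 0.14), and both were highest in antibody replicate 5. All 5 genes of the list were higher with a median of 0.25, but without antibody replicate 5 only 3 were, with a median of 0.14. With the ventral minus dorsal covariate all 5 were higher, with a median of 0.79. The 14 constitutive proteasome subunits had a median of 0.08, or 0.44 with the covariate, where all 14 were higher. Their list level was 10.81 in antibody replicate 5 against 10.14 to 10.21 in the other antibody libraries. That library also had the ventral minus dorsal level nearest to the controls (-0.29), so the covariate values also depend on it.

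MHC class II genes, which microglia, border macrophages and dendritic cells use to present peptides to CD4+ T cells, were higher in some antibody libraries at low levels. H2-Aa was at 13.2, 25.6, 43.2, 8.94 and 9.80 normalized counts with the antibody and at 9.50, 8.36, 6.08, 5.87 and 1.07 with IgG2b (log2 1.5, SE 0.54). H2-Ab1 was at 25.2, 44.6, 50.4, 6.70 and 15.7 against 11.2, 10.2, 8.68, 11.7 and 1.07 (log2 1.56, SE 0.60). Both were highest in antibody replicates 2 and 3 and lowest in IgG2b replicate 5, where 1.07 is a single read. Cd74, the invariant chain, followed with 40.7, 108, 109, 22.3 and 41.2 against 30.2, 25.1, 21.7, 29.3 and 25.8 (log2 1.01, SE 0.38). H2-Eb1 had a log2 difference of 1.17 (SE 0.52), H2-DMb1 of 0.55 (SE 0.31) and H2-DMa, a peptide loading chain, of 0.09 (SE 0.17).

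All 7 tested class II genes were higher, 5 at an unadjusted limma p under 0.05, and the median log2 difference was 1.01, or 0.21 over genes with a mean of at least 50. Ctss, the cathepsin that degrades the invariant chain and the most abundant member, was the 1 gene without overlap, at 1507, 1355, 1234, 1681 and 1217 normalized counts against 981, 1200, 1045, 1126 and 1211 (log2 0.32, SE 0.11). Of the dendritic cell genes 3 were tested and 1 was higher, and of the border macrophage genes 4 were tested and 2 were higher. Antibody replicates 2 and 3, highest in class II, were also highest in choroid plexus and fibroblast markers, and the part of these tissues in the class II values was not tested.

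The interferon lists were higher with the antibody, with larger medians for effector genes than for receptors and signalling factors. Irf9, which carries STAT proteins to DNA, was at 109, 149, 134, 89.4 and 115 normalized counts with the antibody and at 69.9, 81.8, 79.0, 63.7 and 80.5 with IgG2b, without overlap (log2 0.65, SE 0.17, limma adjusted p = 0.282, and 0.0405 in the authors' deposited table). Ifnar2, a chain of the type I interferon receptor, was at 286, 241, 278, 274 and 278 against 220, 260, 184, 188 and 199 (log2 0.38, SE 0.12). Irf7, which amplifies the type I response, was at 24.0, 80.2, 25.7, 17.9 and 16.7 against 15.5, 6.51, 26.1, 16.8 and 8.59, with antibody replicate 2 far above the other libraries (log2 1.0, SE 0.45, and 0.62 without that library). Of 16 receptor and signalling genes 14 were higher, with a median of 0.14, and 3 had an unadjusted limma p under 0.05. With the ventral minus dorsal covariate 12 were higher (median 0.15), and without antibody replicate 5 13 were (0.16).

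Of 18 listed interferon-inducible GTPases, which attack the vacuoles of intracellular pathogens, 15 were tested and all 15 were higher. Their median log2 difference was 0.62, with 6 at an unadjusted limma p under 0.05 and 0 without overlap. Gbp3 was at 99.4, 177, 87.4, 40.2 and 60.8 normalized counts against 35.4, 59.5, 19.1, 25.1 and 25.8 (log2 1.40, SE 0.37, limma adjusted p = 0.294, and 0.0256 in the authors' deposited table). Gbp2 was at 47.9, 100, 51.4, 38.0 and 45.1 against 23.3, 44.6, 18.2, 26.0 and 16.1 (log2 1.11, SE 0.31). In both genes antibody replicate 2 was highest, and IgG2b replicate 2 was the highest control. Gbp5, a guanylate-binding protein that promotes inflammasome assembly, was at 37.1, 70.2, 49.3, 31.3 and 34.3 against 32.8, 22.3, 10.4, 21.0 and 8.59 (log2 1.27, SE 0.36). Gbp4 was at 24.0, 91.4, 27.8, 10.1 and 20.6 against 9.50, 18.6, 4.34, 4.19 and 12.9 (log2 1.53, SE 0.53). Its IgG2b mean was just below the filter of 10, so it was tested through the antibody libraries. The list level was 5.30, 6.20, 5.50, 4.93 and 4.50 in antibody replicates 1 to 5 and 4.74, 5.32, 4.04, 4.04 and 4.38 in IgG2b replicates 1 to 5. These genes lie in clusters of similar copies, so single Gbp values are uncertain.

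Of 44 other interferon-stimulated genes listed, 35 were tested. Of these 32 were higher, 14 at an unadjusted limma p under 0.05 and 3 without overlap, with a median log2 difference of 0.43. Their list level was 5.71, 6.25, 6.11, 5.69 and 5.45 in antibody replicates 1 to 5, and all but replicate 5 lay above the IgG2b libraries, at 5.28 to 5.48. Ifitm3, which blocks viral fusion, was at 131, 176, 227, 137 and 151 normalized counts against 123, 130, 95.5, 83.0 and 106, without overlap (log2 0.60, SE 0.18). Uba7, the activating enzyme for ISG15, did not overlap either, at 37.1, 24.5, 27.8, 26.8 and 38.2 against 9.50, 21.4, 20, 12.6 and 20.4 (log2 0.88, SE 0.29). Oasl2, an oligoadenylate synthetase-like protein, was at 76.7, 107, 108, 61.4 and 40.2 against 42.3, 43.7, 31.3, 52.0 and 36.5, where antibody replicate 5 lay among the controls (log2 0.85, SE 0.27). Oas1a, which activates the latent nuclease RNase L, was at 13.2, 26.7, 14.4, 14.5 and 18.6 against 6.04, 4.65, 1.74, 6.71 and 14.0 (log2 1.44, SE 0.45). Its IgG2b mean was below the filter of 10, so it was tested only through the antibody libraries and its direction partly follows from the filter. With the ventral minus dorsal covariate the medians were 0.69 for the GTPases (13 of 15 higher) and 0.47 for the other interferon-stimulated genes (30 of 35 higher). Without antibody replicate 5 they were 0.87 and 0.59.

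The galectin list holds galectins, lectins that bind galactosides, and also the galectin-3 binding protein Lgals3bp and the galectin-related Lgalsl. Of its 6 tested genes 5 were higher, 4 at an unadjusted limma p under 0.05 and 2 without overlap, with a median log2 difference of 0.54. With the ventral minus dorsal covariate 4 of 6 were higher, with a median of 0.48. Lgals9, a galectin with immune receptors among its ligands, was at 99.4, 130, 108, 114 and 109 normalized counts against 75.1, 77.1, 76.4, 62.9 and 63.3, without overlap (log2 0.65, SE 0.15, limma adjusted p = 0.233, and 0.02 in the authors' deposited table).

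**Figure D3:**
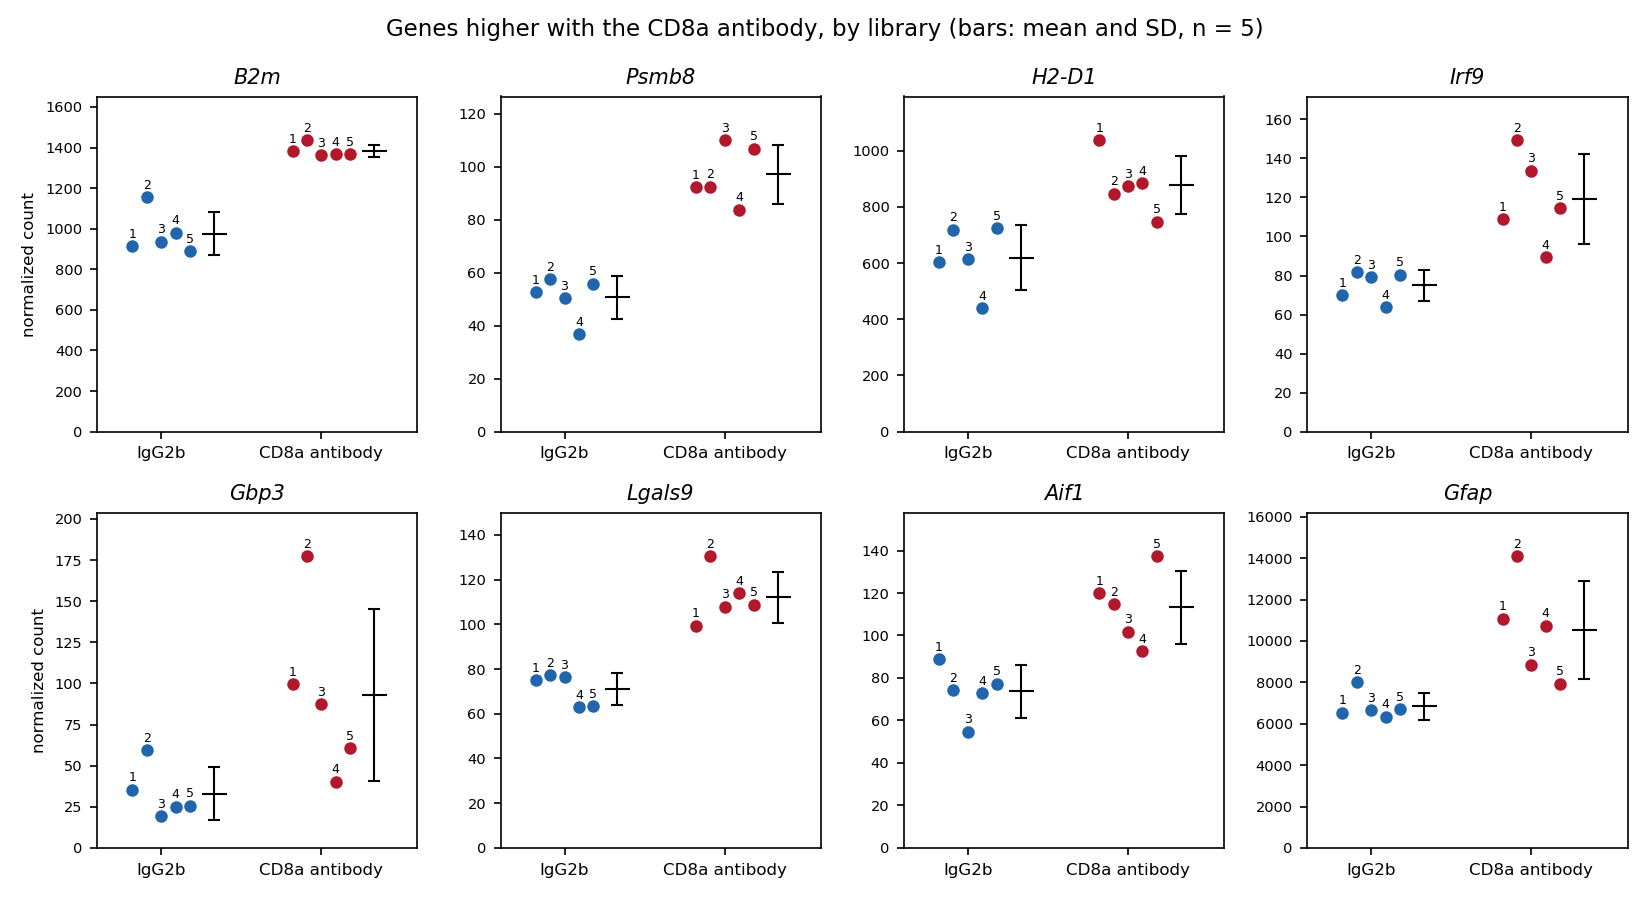
Each point is the normalized count of 1 gene in 1 library, numbered by replicate, with IgG2b in blue, the CD8a antibody in red, and the mean and SD of 5 libraries beside them. All axes start at 0. The groups do not overlap for B2m, Psmb8, H2-D1, Irf9, Lgals9 and Aif1, and they overlap for Gbp3 and Gfap.

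Microglial genes were slightly higher, and their values depended on the region covariate. All 14 identity genes were higher, 7 at an unadjusted limma p under 0.05 and 3 without overlap, with a median log2 difference of 0.28, which was -0.03 with the ventral minus dorsal covariate. Fcrls, an Fc receptor-like marker of microglia, was at 373, 379, 363, 361 and 397 normalized counts against 317, 326, 234, 268 and 224, without overlap (log2 0.47, SE 0.13). Aif1, the actin-bundling protein IBA1, was at 120, 115, 102, 92.7 and 137 against 88.9, 74.3, 54.7, 72.9 and 77.3, without overlap (log2 0.62, SE 0.17, and 0.81 with the covariate). The homeostatic receptor P2ry12 (log2 0.39, SE 0.18) and Tmem119 (0.27, SE 0.13) overlapped between the groups, and P2ry12 was at -0.03 with the covariate.

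Of 24 genes of activated microglia 21 were higher, 9 at an unadjusted limma p under 0.05 and 3 without overlap, with a median log2 difference of 0.42, or 0.20 with the covariate. Their list level did not overlap, at 6.85 to 7.19 with the antibody and 6.41 to 6.68 with IgG2b. Lyz2, lysozyme of myeloid cells, was at 214, 247, 203, 256 and 186 normalized counts against 129, 106, 143, 142 and 181 (log2 0.66, SE 0.15, and 0.0224 as adjusted p in the authors' deposited table). Tyrobp, the adaptor of TREM2, was at 149, 186, 131, 165 and 225 against 124, 123, 105, 111 and 122, without overlap (log2 0.52, SE 0.15). Trem2, the lipid receptor, was at 370, 214, 253, 275 and 309 against 241, 199, 188, 191 and 196 (log2 0.46, SE 0.15). Of 12 cathepsins 11 were higher (median 0.25, and 0.13 with the covariate), with Ctsz at 769, 700, 726, 705 and 767 against 644, 598, 617, 501 and 550, without overlap (log2 0.34, SE 0.10).

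Complement genes, which tag synapses and debris for removal, were higher in 13 of 14 (median 0.41 on the log2 scale), or 0.08 with the ventral minus dorsal covariate. The 3 chains of C1q, made by microglia, were all higher. C1qc was at 873, 745, 621, 768 and 809 normalized counts against 489, 640, 620, 475 and 551 (log2 0.46, SE 0.12). C1qa and C1qb both had a log2 difference of 0.36 (SE 0.12 and 0.11). C4b, made by astrocytes and oligodendrocytes, was at 2823, 1949, 1797, 2601 and 944 against 1016, 1081, 1183, 1385 and 1315. Antibody replicates 1 to 4 lay above all controls and replicate 5 below them, so that the log2 difference was 0.67 (SE 0.23) with all libraries and 0.92 without replicate 5, where it passed (limma adjusted p = 0.0224). With the covariate it was -0.18.

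Reactive astrocyte genes were higher in 12 of 18, with a median log2 difference of 0.30, which was 0.15 without IgG2b replicate 1 and -0.02 with the ventral minus dorsal covariate. The member with the largest difference (0.93) was Psmb8, given above with the immunoproteasome, so the list is not separate from those genes. Gfap, the astrocyte filament, was at 11073, 14083, 8862, 10733 and 7944 normalized counts against 6538, 8001, 6650, 6335 and 6709, with antibody replicate 5 just under IgG2b replicate 2. Its log2 difference was 0.60 (SE 0.14), and it passed without antibody replicate 5 (0.69, limma adjusted p = 0.0486). Vim, the filament vimentin, was at 854, 720, 763, 798 and 545 against 423, 471, 492, 428 and 679 (log2 0.57, SE 0.15). The 12 astrocyte identity genes had a median of 0.04, which was 0.23 without antibody replicate 5 and -0.13 with the covariate. Aldh1a1, retinaldehyde dehydrogenase, was at 807, 853, 642, 724 and 506 against 499, 530, 470, 440 and 427 and passed without antibody replicate 5 (log2 0.67, limma adjusted p = 0.025).

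All 18 myelin and oligodendrocyte genes were higher, 7 at an unadjusted limma p under 0.05, with a median log2 difference of 0.36 that was -0.49 with the ventral minus dorsal covariate. Opalin, a membrane protein of myelinating cells, was at 503, 246, 340, 436 and 445 normalized counts against 332, 229, 137, 165 and 115 (log2 1.07, SE 0.26, and 0.0348 as adjusted p in the authors' deposited table). Mbp, myelin basic protein, was at 40398, 49541, 26002, 33076 and 26004 against 25120, 27081, 22160, 21009 and 22005 (log2 0.54, SE 0.18). Car2, carbonic anhydrase of oligodendrocytes, was at 3745, 3180, 2790, 3542 and 2752 against 2713, 2718, 1832, 2412 and 2415, without overlap (log2 0.41, SE 0.13). Oligodendrocyte precursor genes had a median of -0.12 with 3 of 7 higher, and -0.28 with the covariate.

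Most genes of mural cells and endothelium were higher. Acta2, smooth muscle actin, was at 171, 238, 322, 106 and 274 normalized counts with the antibody and at 103, 83.6, 127, 107 and 78.4 with IgG2b (log2 1.07, SE 0.26, and 0.00537 as adjusted p in the authors' deposited table). Antibody replicate 4 lay among the controls. Tagln, transgelin, was at 71.9, 168, 209, 54.7 and 188 against 70.8, 45.5, 91.2, 52.8 and 59.0 (log2 0.96, SE 0.35). Of 11 pericyte and smooth muscle genes 9 were higher (median 0.38, and 0.22 without antibody replicate 3), or 7 of 11 with a median of 0.18 under the ventral minus dorsal covariate. Of 19 endothelial genes 15 were higher with a median of 0.20, which was 0.03 without antibody replicate 2 and 0.35 with the covariate, so that the order of both medians turned. Tie1, an endothelial receptor kinase, was at 111, 144, 133, 89.4 and 99.0 against 85.5, 83.6, 57.3, 67.1 and 63.3, without overlap (log2 0.68, SE 0.18). Mfsd2a, the lipid transporter of the blood-brain barrier, was lower at 121, 175, 128, 121 and 121 against 127, 164, 277, 241 and 304 (log2 -0.68, SE 0.22). Vcam1, the adhesion molecule through which leukocytes bind to inflamed endothelium, was at 341, 534, 411, 337 and 225 against 364, 427, 273, 280 and 221 (log2 0.22, SE 0.22).

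Among tissues at the edge of the dissection, fibroblast, choroid plexus and ependymal genes were higher with wide spread, while lists of neighbouring brain regions were mixed. Thalamus genes were higher in 3 of 4 (median log2 difference 0.52) and striatum genes in 6 of 7 (0.16). Neocortex genes were higher in 2 of 8 (-0.14). With the ventral minus dorsal covariate these medians were -0.08, 0.21 and 0.21. Of 15 meningeal and vascular fibroblast genes 14 were higher, and their median of 0.46 on the log2 scale was 0.13 without antibody replicate 3 and 0.28 with the covariate. The exception was Dcn. Serpinf1, a secreted serpin, was at 110, 92.5, 133, 118 and 116 normalized counts against 83.7, 79.0, 76.4, 50.3 and 77.3, without overlap (log2 0.64, SE 0.17). Col3a1, a fibrillar collagen, was at 8.38, 16.7, 40.1, 20.1 and 18.6 against 10.4, 14.9, 6.08, 12.6 and 3.22 (log2 1.05, SE 0.46). Its IgG2b mean was just below the filter of 10, so it was tested through the antibody libraries. All 16 choroid plexus genes were higher, 0 at an unadjusted limma p under 0.05, with a median of 0.57 that ranged from 0.20 without antibody replicate 3 to 1.21 without antibody replicate 5. It was -0.69 with the ventral minus dorsal covariate. Ttr, transthyretin of the choroid plexus, was at 18119, 25071, 29397, 1498 and 591 against 25020, 3785, 1801, 3603 and 1580 (log2 0.72, SE 1.03). Ependymal genes were higher in 12 of 12 (median 0.48, and 0.81 without antibody replicate 5), but with the ventral minus dorsal covariate in 5 of 12 with a median of -0.04. The cilia gene Ccdc153 was at 83.8, 82.5, 82.2, 178 and 37.2 against 11.2, 33.5, 37.3, 40.2 and 88.0 (log2 1.22, SE 0.46).

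Ribosomal protein genes were higher in 77 of 81, by a median of 0.27, and their level was high in antibody replicates 2 and 5 only, at 11.56 and 11.47 against 10.76 to 10.86 in the other antibody libraries and 10.72 to 10.96 with IgG2b. The 79 nuclear genes of oxidative phosphorylation had a median of 0.11, which was -0.01 without antibody replicate 5. With the ventral minus dorsal covariate the medians were 0.95 for ribosomal proteins and 0.67 for oxidative phosphorylation, with 79 of 81 and 76 of 79 genes higher. Antibody replicates 2 and 5 were also those with the ventral minus dorsal level nearest to the controls (-0.33 and -0.29). The covariate values therefore also take up the difference between these and the other antibody libraries, and its part was not tested. Glutathione transferases were higher in 13 of 16 (median 0.23, and 0.13 without antibody replicate 5), and in 15 of 16 with the covariate (0.52). Gstt3 was at 74.3, 79.1, 46.3, 69.3 and 51.0 normalized counts against 28.5, 40.0, 30.4, 25.1 and 36.5, without overlap (log2 0.96, SE 0.22). Gstm7 was at 424, 322, 395, 402 and 470 against 245, 322, 267, 280 and 313, with antibody replicate 2 level with the highest control (log2 0.49, SE 0.13). Both passed in the authors' deposited table (adjusted p = 0.0179 and 0.0383). The neurogenesis markers had a median of -0.09 with 3 of 8 higher, and Dcx, the doublecortin of new neurons, was at 74.3, 109, 56.5, 123 and 53.9 against 156, 112, 104, 93.0 and 96.6 (log2 -0.48, SE 0.24).

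**Figure D4:**
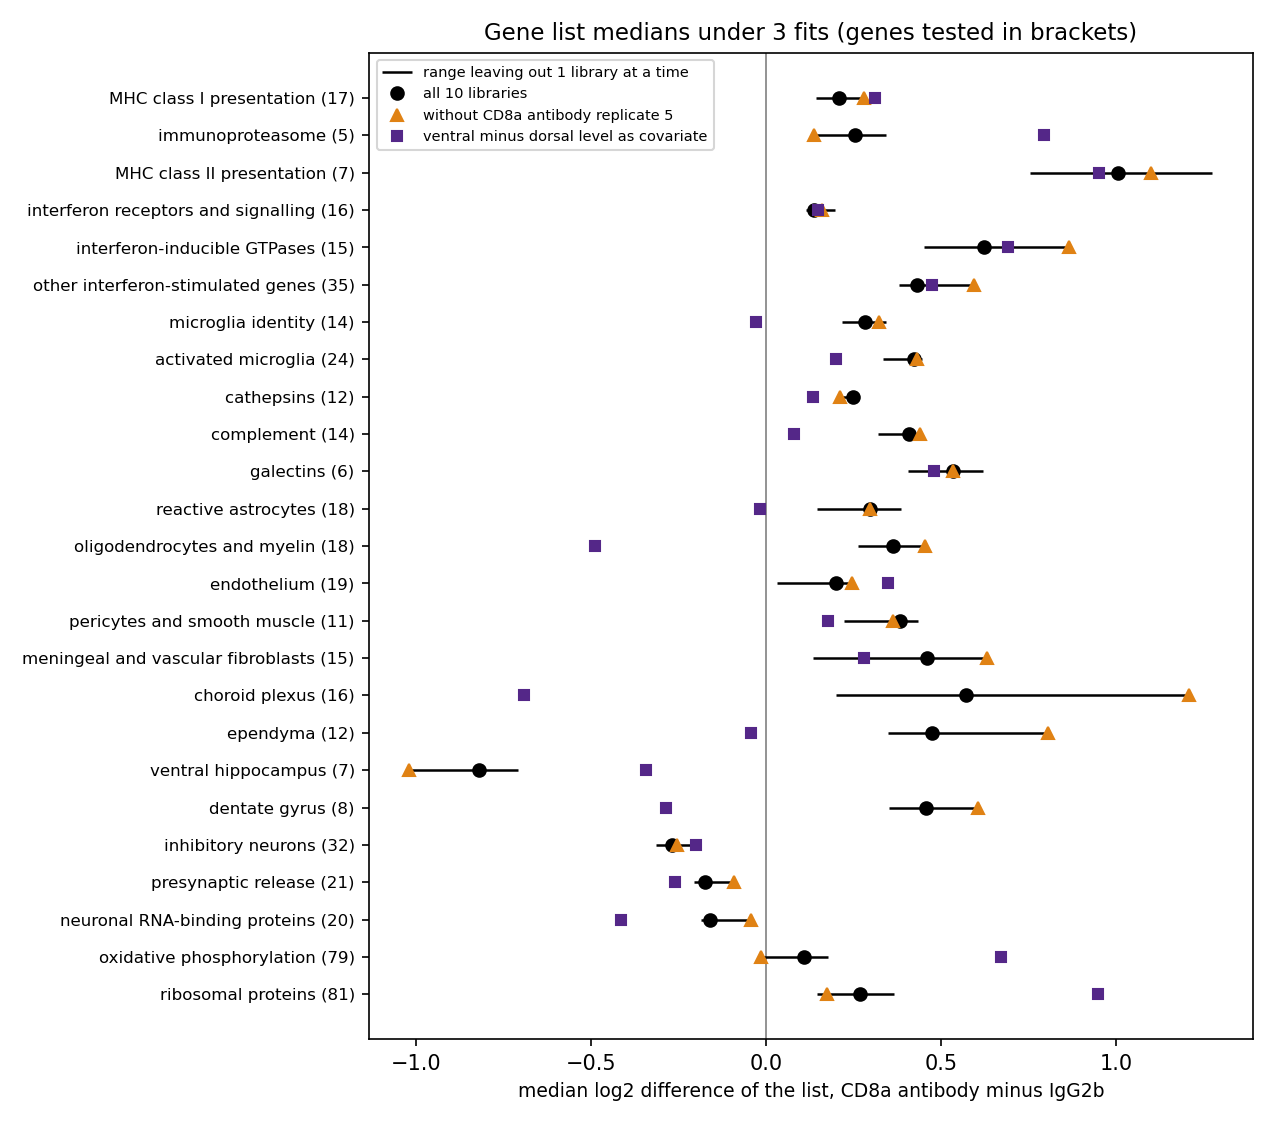
Each row is 1 gene list with the number of genes tested in brackets, and the x axis gives its median log2 difference, CD8a antibody minus IgG2b. Circles show all 10 libraries, lines the range over fits without 1 library, triangles the fit without CD8a antibody replicate 5 and squares the fit with the ventral minus dorsal covariate. Interferon-inducible GTPases lie at 0.62, 0.87 and 0.69 in the 3 fits, while microglia identity lies at 0.28, 0.32 and -0.03.

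The other experiment of the study gave CD8+ T cells of aged or young donors to young recipients of 4 months. Both arms had received the CD8a antibody, and no library is shared with the present comparison. Its table was normalized separately, and differences between the experiments were not tested. limma called 0 of 14162 genes there (0.0%), with 1169 (8.25%) at an unadjusted p under 0.05. Gpr101 had a log2 difference of 0.29 (SE 0.37) between recipients of aged and young T cells, B2m of -0.08 (SE 0.13), Psmb8 of 0.16 (SE 0.25) and Timp2 of 0.04 (SE 0.19). The GTPase median was -0.26 there against 0.62 here, that of other interferon-stimulated genes -0.09 against 0.43, and that of MHC class II -0.22 against 1.01. Gbp5 was at -0.62 (SE 0.23) after transfer of aged cells and at 1.27 (SE 0.36) with the antibody. The fibroblast median was -0.62 against 0.46 and the smooth muscle median -0.37 against 0.38, with Acta2 at -0.77 (SE 0.32) and Col3a1 at -1.38 (SE 0.57) after transfer. Other medians had the same sign in both experiments, with myelin at 0.29 against 0.36 and ependymal genes at 0.45 against 0.48. So did the immunoproteasome (0.16 against 0.25), the galectin list (0.21 against 0.54), cathepsins (0.10 against 0.25) and ribosomal proteins (0.29 against 0.27). The MHC class I median was -0.06 against 0.21. Of 91 genes called in the authors' deposited table for the antibody and tested in both experiments, 36 had the opposite sign in the transfer and 3 had an unadjusted limma p under 0.05 there. Their median absolute log2 difference was 0.11 in the transfer and 0.64 with the antibody. The genes were chosen by their call with the antibody, so a larger difference there follows from the choice and does not compare the experiments.

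**Figure D5:**
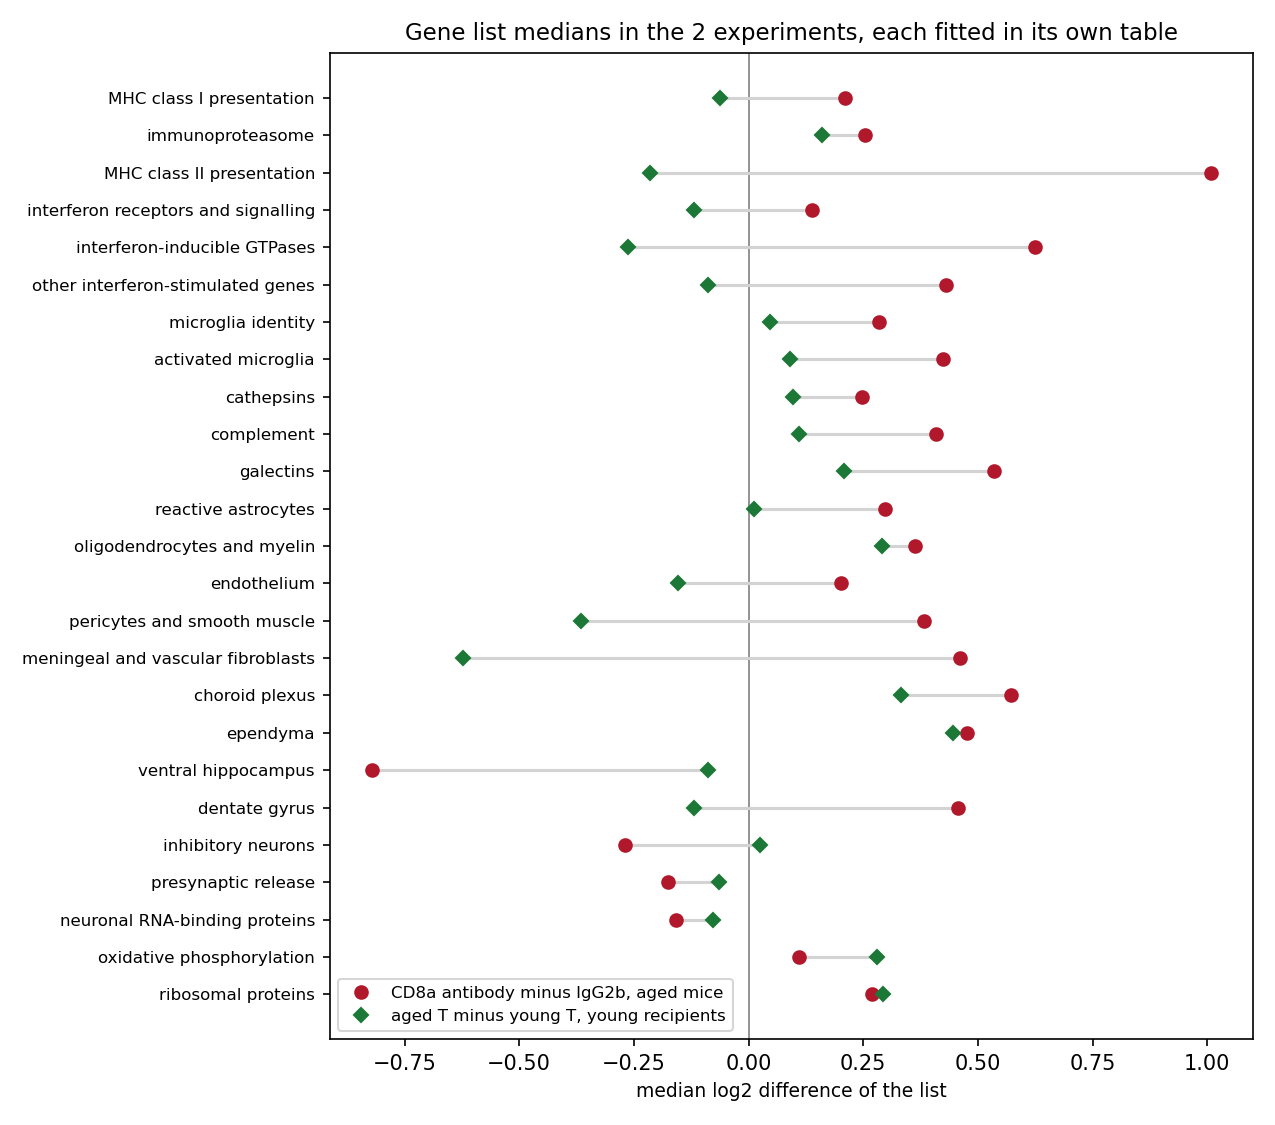
Each row is 1 gene list, and the x axis gives its median log2 difference. Circles show CD8a antibody minus IgG2b in aged mice and diamonds aged T minus young T in young recipients, each fitted in its own table. MHC class II lies at 1.01 and -0.22, and ependyma at 0.48 and 0.45.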

How the data were processed

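The comparison used 5 CD8a antibody and 5 IgG2b libraries. The submitters' processing notes name STAR, RSEM, DESeq2 and the mm10 build, without versions or roles. The gene annotation and the counting of reads are not stated in the sources used here. The deposited table holds 24411 genes by symbol with a normalized count signal per library and, per the file headers, the authors' own log2 fold change, standard error, test score and p-value. The authors' fold change is signed as control over treated and was turned round here. All 244110 values were whole multiples of 1 step per library (100% at a relative tolerance of 1e-06), so whole read counts were recovered from the deposited signal. A table for the T cell transfer, normalized separately, was used side by side only, and no count test was run on it.

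A gene entered the test if its normalized counts averaged 10 or more over all libraries of the comparison. A weakly expressed gene could thus pass through the group where it was high, which favours that direction among such genes. Testing was done in limma 3.58.1 (trend option, R 4.3.3) on log2(normalized count + 1), without covariates, with Benjamini-Hochberg adjustment over all 13939 genes and calls at an adjusted p under 0.05. Differences are CD8a antibody minus IgG2b on this scale, which understates those of weakly expressed genes. On the recovered reads, edgeR 4.0.16 (quasi-likelihood) called 1 gene, limma-voom likewise 1, and DESeq2 1.42.0 called 91. On simulated counts of 13939 genes limma recovered 24% of genes changed 1.5-fold and 80% of those changed 2-fold, with 4 false calls among the unchanged genes. The changed genes were drawn above a higher mean than the filter of 10, so these shares do not cover the weakest genes tested. Counts were drawn separately for each gene, without the region difference between the groups. Read totals set the precision, and limits from reads cover counting error only. No libraries were duplicates (chi-square per degree of freedom at least 7.11 within groups).

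The comparison, the 52 gene lists and the ventral minus dorsal covariate were chosen with earlier results of these data known, so lists are described by counts and medians without a test. Some genes belong to several lists. Named genes were the 15 per direction with the smallest limma p, up to 10 per direction with the smallest adjusted p in the deposited comparison, up to 4 per list, a fixed set, members of lists of up to 12 genes, and up to 10 per direction called in fits without 1 library. Symbols of predicted genes were left out, and not every gene the rule takes is printed. Alternatives were other pseudocounts (0.5 and 5), no filter or a mean of at least 50, TMM scaling, the other tools, covariates for region and choroid plexus level, and leaving out each library. Coordinates and promoters are from RefSeq (GRCm38.p6), in which 23194 symbols (95.0%) were found.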

Additional observations from a re-analysis of the deposited data

Results flagged for a closer look

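In each group of 5 libraries, a value was picked out when its gap to the nearest other library, divided by the range of the group, was above Dixon's 95% critical value of 0.71. Of 286 groups of values examined, 33 held such a library, and chance gives about 1 in 20. The values share libraries and are not independent of each other.

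CD8a antibody replicate 2 stood apart from the other antibody libraries in 8 genes. It was high for B2m (1436 normalized counts), Gabra3 (1291), Gbp2 (100.3), Gbp4 (91.4), Irf7 (80.2) and Mfsd2a (175), and low for C1ql2 (743) and Ifnar2 (241). CD8a antibody replicate 3 was high for Elavl4 (855), and CD8a antibody replicate 4 was low for Etv1 (808).

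CD8a antibody replicate 5 stood apart on the first principal component (57.3) and for Grp (389 normalized counts). Its list level, in mean log2(normalized count + 1), was high for the constitutive proteasome (10.81) and low for chemokines and receptors (6.80), leukocyte adhesion molecules (7.03), ependyma (4.02), thalamus (6.31) and neuronal RNA-binding proteins (9.87).

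IgG2b replicate 1 was high among the controls for Ttr (25020 normalized counts), Dcn (1032), Efnb2 (859), Reln (685), Trem2 (241) and Wfs1 (2016), and its level of CA2 and CA3 markers was low (6.25). IgG2b replicate 2 was high for Gfap (8001) and IgG2b replicate 3 for Adamts2 (207). IgG2b replicate 4 was low for H2-Q4 (31.0) and Serpinf1 (50.3). IgG2b replicate 5 was low for H2-Ab1 (1.07) and for the MHC class II level (4.33), and high for Vim (679) and the ependymal level (5.48).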

How the results depend on the processing

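limma's count of 1 called gene became 0 without the mean filter, 14 with the ventral minus dorsal covariate and 3 with the choroid plexus covariate, and lay between 0 and 25 when 1 library was left out, with 25 reached without CD8a antibody replicate 5. At an unadjusted p under 0.05, limma had 1414 of 18180 genes without the filter and 831 to 1839 genes over the fits without 1 library. DESeq2 called 91 genes, and 92 were called in the authors' deposited table. In fits added after the data were seen, DESeq2 called 25 to 300 genes without 1 library, 300 of them without CD8a antibody replicate 5 and 25 without IgG2b replicate 3. With the covariate, 12 of the 14 called genes were higher and 2 lower.

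With the ventral minus dorsal covariate the log2 difference changed sign for Nr2f2 (0.059), Lct (-0.58), Wfs1 (-0.30), Dsp (-0.40), P2ry12 (-0.035), C4b (-0.18), Vcam1 (-0.035) and Ttr (-1.0). So did the list medians of microglia identity (-0.028), chemokines (-0.0057), reactive astrocytes (-0.017), myelin (-0.49), adhesion molecules (-0.072), dentate gyrus (-0.29), thalamus (-0.076), dorsal hippocampus (-0.30), choroid plexus (-0.69), ependyma (-0.042), metalloproteinases (-0.14), astrocyte identity (-0.13), immediate early genes (-0.019), cholesterol synthesis (-0.026), neocortex (0.21) and border macrophages (0.45). Ttr was at -0.097 with the choroid plexus covariate. Without single libraries the sign changed for Psmb10 (range -0.12 to 0.10, negative without CD8a antibody replicates 2 or 5 or IgG2b replicate 4), Psme1 (-0.084 to 0.11) and H2-DMa (-0.039 to 0.17), the latter pair negative without CD8a antibody replicate 5. The cause was not tested. The covariate was made from ventral and dorsal genes named in the report, and its fit rests on groups that do not overlap in it. No paired analysis was possible because the sample names share no number between the groups. Depth limits what can be said of T cell transcripts, at 4 reads or fewer of Cd8a per library, and of class II genes.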
